A study of Rattus norvegicus with 6 samples.

Results

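The histone genes of cultured rat vascular smooth muscle cells, which contract the wall of vessels, were compared between 3 libraries labelled MIAT knockdown and 3 libraries titled Scr. Every row of the count table whose symbol begins with H1f, H2a, H2b, H3 or H4 and names a histone was taken, which gave 28 of 18631 genes. MIAT, a long noncoding RNA, is the target, and the labels' protocols give siRNAs plus antisense oligonucleotides (ASOs), 50 nM together, for 72 h as the treatment that lowers it. This text, with its 50 nM and 72 h, stands on all 6 libraries, the Scr ones included. The Scr libraries carry a wild-type genotype label, and no label names the oligonucleotides given to their cells. The labels give the tissue as vessel, name no passage, sex or animal, and do not say whether libraries of a group came from separate cultures, so that p-values speak of the spread among these 6 libraries, and that spread may be technical. Polyadenylated RNA was sequenced.

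Histones package DNA into nucleosomes, made of core histones H2A, H2B, H3 and H4, with linker histone H1 bound where DNA enters and leaves. Replication-dependent histone genes lie in clusters, are transcribed mainly in S phase, and give messenger RNAs that end in a stem-loop bound by SLBP in place of a poly(A) tail, although polyadenylated forms of some are known. Replacement variant genes lie outside the clusters, carry a usual poly(A) tail and supply histones throughout the cell cycle. By the names of the genes, 15 members were replication-dependent, 9 were replacement variants and 4 were of germline type (H1f6, H1f7, H1f8 and H3f4, whose products are known from testis or oocyte). The replication-dependent H2ac1 and H2bc1 are the testis forms of H2A and H2B. In the RefSeq annotation of the rat assembly GRCr8, 28 of 28 member symbols matched, and 13 lay on chromosome 17, which carries the main histone cluster. H3f3c is a pseudogene there, and H4f3 has Hist1h1d, a linker histone name, as a synonym, so the identity of H4f3 is uncertain.

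The promoters printed here are those of the clustered linker histone genes and of the gene pair H3f3b and H3f3a. Of the linker histone genes, H1f4 and H1f2 were higher past the threshold of the test, and H1f1 and H1f5 were not past it. Of the pair, H3f3b was past it. Whether the promoters bear on these differences was not tested. H4f3 is shown for its linker histone synonym. The printed sequences are the bases just before the RefSeq start in GRCr8, read on the strand of the gene, in lower case, with 4 searched motifs in capitals. These are the H1 box (letters AAACACA), a linker histone promoter element, the CCAAT box (by its letters), the TATA box (letters TATAAA) and the octamer (letters ATTTGCAT). Each was sought on both strands, so that capitals can also spell the complement of a motif, as in ATTGG for the CCAAT box. No motif contains another.
H1f4 (chr17:41914295-41914424, plus strand): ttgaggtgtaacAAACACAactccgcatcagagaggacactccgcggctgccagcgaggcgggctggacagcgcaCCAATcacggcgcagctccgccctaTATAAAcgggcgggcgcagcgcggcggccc
H1f2 (chr17:41820454-41820583, minus strand): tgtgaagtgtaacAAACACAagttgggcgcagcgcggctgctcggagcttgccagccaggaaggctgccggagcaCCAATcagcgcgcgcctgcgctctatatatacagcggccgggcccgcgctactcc
H1f5 (chr17:47421745-47421874, plus strand): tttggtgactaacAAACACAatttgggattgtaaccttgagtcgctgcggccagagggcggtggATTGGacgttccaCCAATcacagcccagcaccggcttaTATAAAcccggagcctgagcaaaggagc
H1f1 (chr17:41794869-41794998, minus strand): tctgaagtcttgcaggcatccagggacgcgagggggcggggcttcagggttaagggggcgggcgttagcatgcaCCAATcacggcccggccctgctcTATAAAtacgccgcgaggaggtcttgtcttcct
H4f3 (chr17:41980342-41980501, minus strand): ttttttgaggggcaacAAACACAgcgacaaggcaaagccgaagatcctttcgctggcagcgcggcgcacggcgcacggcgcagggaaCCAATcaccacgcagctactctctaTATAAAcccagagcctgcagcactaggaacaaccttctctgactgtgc
H3f3b (chr10:101757637-101757856, minus strand): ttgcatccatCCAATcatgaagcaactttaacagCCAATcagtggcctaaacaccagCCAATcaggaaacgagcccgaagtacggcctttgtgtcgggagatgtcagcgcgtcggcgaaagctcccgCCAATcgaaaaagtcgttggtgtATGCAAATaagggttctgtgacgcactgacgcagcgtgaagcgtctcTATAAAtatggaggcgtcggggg
H3f3a (chr13:95076696-95076915, minus strand): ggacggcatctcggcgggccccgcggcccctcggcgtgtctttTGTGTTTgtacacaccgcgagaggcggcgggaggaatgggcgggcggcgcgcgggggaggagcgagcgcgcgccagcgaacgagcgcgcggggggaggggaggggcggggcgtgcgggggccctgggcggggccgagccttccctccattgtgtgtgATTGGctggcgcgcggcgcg
The H1 box began 118, 117, 117 and 144 bases before the start of H1f4, H1f2, H1f5 and H4f3 and was not found in the 250 bases before H1f1. The nearest CCAAT on the gene's strand began 55, 55, 53, 56 and 73 bases before the start of H1f4, H1f2, H1f5, H1f1 and H4f3, and TATAAA 30, 28, 33 and 48 bases before that of H1f4, H1f5, H1f1 and H4f3, while H1f2 had no TATAAA in its 250 bases. H1f4 and H1f5 thus carried the same 3 motifs at nearly the same places. H1f5 had a further CCAAT box on the other strand 66 bases before its start. Another lay on its own strand 168 bases before the start, outside the printed bases. H3f3b had 4 CCAAT, an octamer on the other strand and a TATAAA, against a CCAAT and an H1 box in H3f3a, each on the other strand. Over the 250 bases before the start, TATAAA was present in 85.7% of 14 replication-dependent, 25.0% of 8 replacement and 12.9% of 33469 RefSeq promoters. CCAAT was present in 100% of the replication-dependent, 75.0% of the replacement and 34.0% of all promoters, and the H1 box in 50.0%, 12.5% and 6.1%. The windows of H2ac1 and H2bc1 overlap almost fully on opposite strands, as do those of H2ac12 and H2bc12. The 14 replication-dependent windows are thus not all separate DNA, and some boxes count for both genes. Such matches describe the letters in these windows only.

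Total counts ranged from 17793811 to 20121161 per library. With edgeR's quasi-likelihood test and no further covariate, 0 of 13423 tested genes passed an adjusted p of 0.05, 2576 genes had an unadjusted p under 0.05, and DESeq2 called 699. Same-numbered libraries deviated together, and with the replicate number as a block the edgeR test called 2898 genes, 1412 higher and 1486 lower. Rose and fell are used for genes with an adjusted p under 0.05 in that block fit. Miat itself was not analysed here, so the group labels were not checked against it. The smooth muscle markers were abundant, Acta2 at 2298 ± 484 CPM in MIAT knockdown and 2715 ± 465 CPM in Scr control libraries (SD, n = 3 each). The 7 leukocyte markers in the table summed to 22.4 to 26.8 CPM in MIAT knockdown and 21.8 to 34.8 CPM in Scr control libraries. Of these, 4 were tested and 0 rose or fell. Ptprc, their defining marker, was at 0 in all Scr control libraries and at 0.0174 ± 0.0301 CPM in MIAT knockdown libraries (n = 3 each), so the sum came from other markers of the list. Of 10 smooth muscle markers Myh11, Mylk and Lmod1 fell, and their sum was 5299 to 7755 CPM in MIAT knockdown and 6016 to 7745 CPM in Scr control libraries. The 8 endothelial markers summed to 5.42 to 6.28 CPM in MIAT knockdown and 7.63 to 10.3 CPM in Scr control libraries, and Kdr fell. The part of these cell type markers in the histone values was not tested.

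Histone genes that changed were all higher in the MIAT knockdown libraries. Of the 28 members, 20 passed the filter on low counts, and of these 6 rose, 0 fell and 14 did not pass. They were the linker histone genes H1f4, H1f2 and H1f0 and the core variant genes H2az1, H2ax and H3f3b. Over all tested genes 21.6% changed, 10.5% rose and 11.1% fell in the same fit. The risers comprised 2 of 10 tested replication-dependent genes, 4 of 9 replacement genes and 0 of 1 germline-type gene. Without the block 0 members passed in edgeR, where 7 were higher at an unadjusted p under 0.05, as were 10.4% of all tested genes. DESeq2 without the block called 5 of the 6, the exception being H2ax, among 2.73% of all tested genes that it called higher. In CPM (counts scaled to a common library size, after TMM scaling), 9 of the 20 members had no overlap between the groups, all higher in MIAT knockdown, against 14.2% of all tested genes, and 15 were higher in MIAT knockdown in all 3 same-numbered pairs, against 28.0%. The median log2 fold change with the block was 0.46 for the tested replication-dependent genes, 0.30 for the replacement genes and -0.01 for all tested genes. Within pairs 1, 2 and 3 the median was 0.13, 0.17 and 0.69 for the replication-dependent genes and 0.29, 0.23 and 0.36 for the replacement genes, so the replication-dependent median was the higher one in pair 3 and the lower one in pairs 1 and 2. Without pair 3 the replication-dependent median was 0.21, and without the block it was 0.40, against 0.10 without Scr control library 3 and 0.17 without MIAT knockdown library 1. In bulk RNA, more cells in S phase and more histone RNA per cell cannot be told apart.

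**Figure D1:**
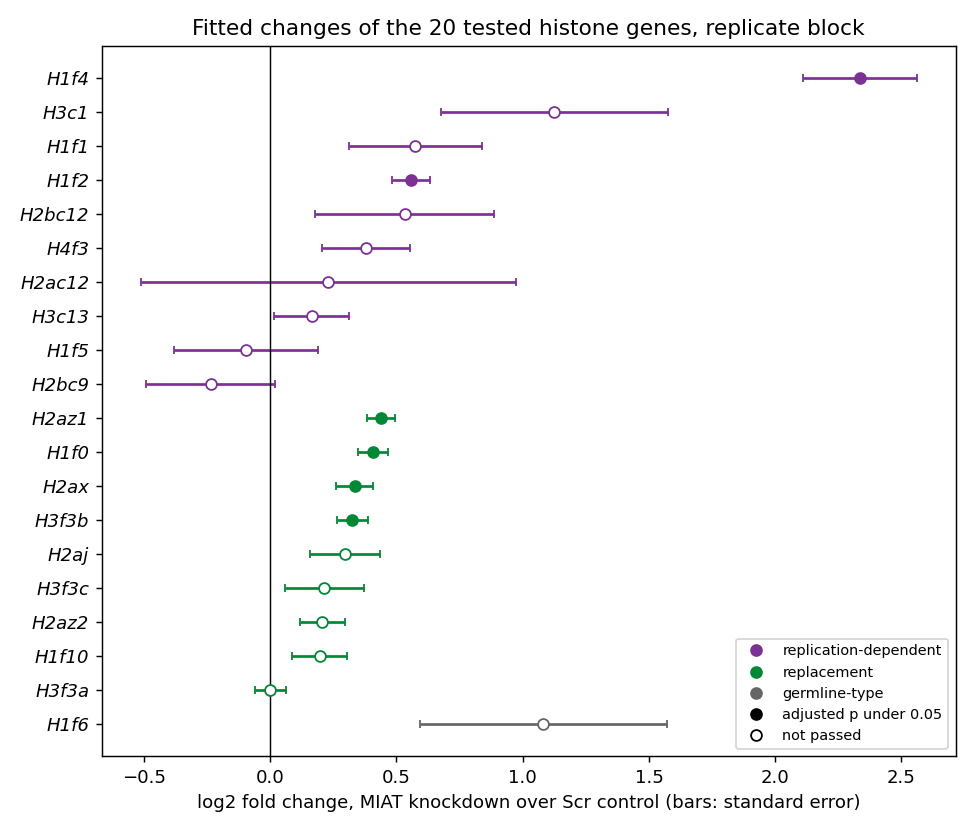
Log2 fold change of MIAT knockdown over Scr control for the 20 tested histone genes, from edgeR with the replicate block, with bars of 1 standard error. Filled points passed an adjusted p of 0.05; all 6 lie right of 0, H1f4 farthest at 2.34, and the replacement genes lie between 0.00 and 0.44.

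H1f4, which encodes linker histone H1.4, had the largest change of the members. It had 175, 97 and 87 counts in the MIAT knockdown libraries, against 36, 19 and 13 counts in the Scr control libraries. Scaled, these were 9.11, 5.21 and 4.52 CPM in the MIAT knockdown libraries, against 2.04, 1.07 and 0.696 CPM in the Scr control libraries, so that the lowest MIAT knockdown library stood above the highest Scr control library. The gene averaged 6.28 ± 2.48 CPM in MIAT knockdown and 1.27 ± 0.695 CPM in Scr control libraries (SD, n = 3 each), a 5.05-fold rise with a log2 fold change of 2.34 (standard error 0.225) and an edgeR adjusted p (block) of 0.00129, against 0.104 without it. The rise ranked 8 among the 13423 tested genes by log2 fold change, and within pairs 1, 2 and 3 the log2 difference was 2.10, 2.18 and 2.52. The length behind its FPKM (counts scaled by gene length and library total) is 660 bases, and the mean level, 9.91 ± 4.08 FPKM in MIAT knockdown and 1.87 ± 1.08 FPKM in Scr control libraries (n = 3 each), lay below those of H1f2 and H1f0 in FPKM.

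H1f2, which encodes linker histone H1.2, had the highest level of the linker histone genes in these polyadenylated libraries. Its levels were 224, 217 and 187 CPM in the MIAT knockdown libraries, against 130.4, 158 and 139 CPM in the Scr control libraries, with no overlap. It averaged 209 ± 19.98 CPM in MIAT knockdown and 142 ± 13.9 CPM in Scr control libraries (SD, n = 3 each) and rose 1.47-fold, with a log2 fold change of 0.56 (standard error 0.0751) and an edgeR adjusted p (block) of 0.00322. Within the pairs the log2 difference was 0.78, 0.46 and 0.43. H1f2 and H1f4 encode very similar proteins and how the authors assigned shared reads is not stated, which leaves the split of reads between such paralogs uncertain.

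H1f0, the replacement linker histone known to accumulate in cells that leave the cell cycle, was also higher. It was at 111, 115 and 108 CPM in the MIAT knockdown libraries, against 77.8, 90.3 and 84.0 CPM in the Scr control libraries, and the groups did not overlap. The log2 fold change was 0.41 (standard error 0.0596), a 1.33-fold rise, with an edgeR adjusted p (block) of 0.00399. The remaining linker histone genes did not pass. H1f1 stood at 6.30, 2.84 and 3.74 CPM in the MIAT knockdown libraries, against 5.95, 1.96 and 1.499 CPM in the Scr control libraries, with overlapping groups and the highest value of each group in library 1, and its log2 fold change was 0.57 (standard error 0.264). H1f5 stood at 3.12, 2.04 and 2.34 CPM in the MIAT knockdown libraries, against 4.71, 2.24 and 1.55 CPM in the Scr control libraries and had the only negative log2 fold change of the linker histone genes, -0.09 (standard error 0.285), which turned positive with total counts and the block, on both FPKM scales, without Scr control library 1 and without pair 1. H1f10, a replacement linker histone, averaged 14.3 ± 1.48 CPM in MIAT knockdown and 12.5 ± 1.03 CPM in Scr control libraries (n = 3 each). The germline-type H1f6, at 20, 20 and 26 counts in the MIAT knockdown libraries, against 15, 11 and 4 counts in the Scr control libraries, had no overlap in CPM and a log2 fold change of 1.08 (standard error 0.489), with an edgeR adjusted p of 0.147.

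The H1f genes were compared as shares of their summed FPKM, a per-length scale. These are shares of polyadenylated RNA. They need not match those of all linker histone RNA, since clustered genes mainly give stem-loop RNA. How much H1f4 and H1f2 RNA lacked a poly(A) tail was not measured in either group. H1f4 made up 5.74, 3.50 and 3.38% in the MIAT knockdown libraries, against 2.05, 0.981 and 0.723% in the Scr control libraries. The groups did not overlap, and the mean share was 4.20% ± 1.33 in MIAT knockdown and 1.25% ± 0.702 in Scr control libraries (SD, n = 3 each). An exact two-sided permutation test gave p = 0.1, the smallest that 3 against 3 libraries allow, and 0.400 after adjustment over the 10 shares computed. H1f2 held 62.3% ± 1.47 in MIAT knockdown and 61.4% ± 3.50 in Scr control libraries, and H1f0 27.0% ± 1.88 in MIAT knockdown and 29.4% ± 1.65 in Scr control libraries (n = 3 each), with exact permutation p = 0.8 and 0.2. Within same-numbered pairs the H1f4 share was higher in 3 of 3, by 3.69, 2.52 and 2.65 percentage points, and the H1f0 share was lower in 3 of 3, with differences of -2.80, -1.99 and -2.44 points, while the H1f2 share was higher in 2 of 3. An exact two-sided permutation test over the pairs, chosen after the data were seen, gave p = 0.25 for H1f4 and H1f0, the smallest that 3 pairs allow, so neither exact test of a share could pass 0.05.

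**Figure D2:**
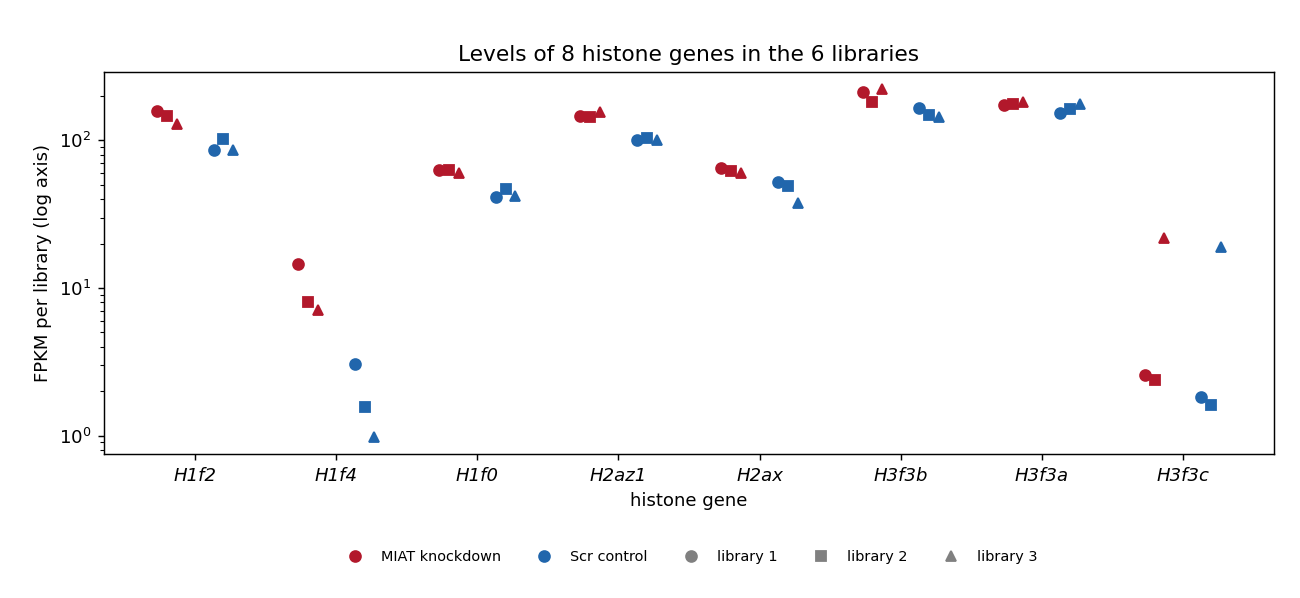
FPKM of 8 histone genes in each library on a log axis, MIAT knockdown in red left of Scr control in blue, with circles, squares and triangles for libraries 1, 2 and 3. H1f4 is separated most, H3f3a overlaps, and H3f3c is high in library 3 of both groups, at 21.8 and 19.0 FPKM.

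Among the core replacement variants, H2az1, which encodes H2A.Z.1, a variant placed at promoters by remodelling complexes, was at 112, 114 and 120.4 CPM in the MIAT knockdown libraries, against 82.1, 86.6 and 86.9 CPM in the Scr control libraries. Its groups lay far apart relative to their spread, at 116 ± 4.24 CPM in MIAT knockdown and 85.2 ± 2.70 CPM in Scr control libraries (SD, n = 3 each). The rise was 1.36-fold, with a log2 fold change of 0.44 (standard error 0.0546) and an edgeR adjusted p (block) of 0.00270. Its paralog H2az2, which encodes H2A.Z.2, was at 17.4, 20.7 and 25.4 CPM in the MIAT knockdown libraries, against 13.9, 18.1 and 23.5 CPM in the Scr control libraries, and the groups overlapped. H2az2 was higher in all 3 pairs but did not pass, with a log2 fold change of 0.21 (standard error 0.0900). H2az1 made up 93.6% ± 0.931 in MIAT knockdown and 92.5% ± 1.62 in Scr control libraries of the summed FPKM of both genes (n = 3 each; exact permutation p = 0.5), and was higher in 3 of 3 pairs.

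H2ax encodes the variant that is phosphorylated at DNA breaks, and its messenger RNA is known in a stem-loop and a polyadenylated form. It was at 81.4, 81.2 and 77.8 CPM in the MIAT knockdown libraries, against 70.0, 67.6 and 54.1 CPM in the Scr control libraries, and the lowest value was that of Scr control library 3. The log2 fold change was 0.33 (standard error 0.0731), a 1.26-fold rise, with an edgeR adjusted p (block) of 0.0150. This call ended without pair 2 (0.37, adjusted p = 0.0796). H2aj, an H2A variant, stood at 27.0, 22.8 and 27.0 CPM in the MIAT knockdown libraries, against 24.9, 22.5 and 15.8 CPM in the Scr control libraries, with overlapping groups, and did not pass.

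H3f3a and H3f3b encode the same H3.3 protein, which is deposited outside replication, and were measured as separate rows. H3f3b was at 334, 297 and 354 CPM in the MIAT knockdown libraries, against 274, 253 and 258 CPM in the Scr control libraries, with no overlap. It averaged 328 ± 29.2 CPM in MIAT knockdown and 262 ± 11.2 CPM in Scr control libraries (SD, n = 3 each), a 1.25-fold rise with a log2 fold change of 0.32 (standard error 0.0617) and an edgeR adjusted p (block) of 0.00925, a call that ended without pair 2 (0.37, adjusted p = 0.0557). H3f3a was at 179.8, 188 and 189.8 CPM in the MIAT knockdown libraries, against 168, 182 and 208 CPM in the Scr control libraries, and the Scr control range enclosed that of MIAT knockdown. Its log2 fold change was 0.00 (standard error 0.0617), with an edgeR adjusted p of 0.991; with total counts and the block it was 0.11, where the median of all genes was 0.10. H3f3b made up 55.1, 51.1 and 55.2% in the MIAT knockdown libraries, against 51.9, 47.8 and 44.9% in the Scr control libraries of the summed FPKM of the pair. One Scr control value lay among the MIAT knockdown values, and the exact two-sided permutation test of the means, 53.8% ± 2.35 in MIAT knockdown and 48.2% ± 3.49 in Scr control libraries (SD, n = 3 each), gave p = 0.2. Within pairs the share was higher in 3 of 3, by 3.21, 3.29 and 10.2 percentage points.

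The pseudogene H3f3c followed the library numbers instead of the groups, with 49, 45 and 421 counts in the MIAT knockdown libraries, against 34, 31 and 397 counts in the Scr control libraries. Library 3 was high in both groups. The block log2 fold change was 0.21 (standard error 0.157) and did not pass. A processed copy of an H3.3 gene can share reads with its parents, so this value is uncertain.

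The replication-dependent core histone genes under the symbol rule were low in these polyadenylated libraries. Of their 6 tested members 0 passed, or 0 of 5 without H4f3, whose class is uncertain. Further core histone genes carry Hist symbols outside this rule, and of 22 tested 6 rose, as given below. H3c1, an H3 gene, had 25, 16 and 17 counts in the MIAT knockdown libraries, against 7, 12 and 6 counts in the Scr control libraries, with no overlap between the groups in CPM. Its log2 fold change was 1.13 (standard error 0.449), with an edgeR adjusted p (block) of 0.107. H2bc12, an H2B gene, was at 1.72, 1.18 and 1.30 CPM in the MIAT knockdown libraries, against 0.794, 1.07 and 1.02 CPM in the Scr control libraries and did not overlap either, with a log2 fold change of 0.53 (standard error 0.355). The most abundant by CPM was the H3 gene H3c13, at 15.1, 8.69 and 7.58 CPM in the MIAT knockdown libraries, against 15.1, 8.81 and 5.03 CPM in the Scr control libraries, where library 1 was highest and library 3 lowest in both groups. H2ac12, an H2A gene, had 29, 7 and 19 counts in the MIAT knockdown libraries, against 38, 13 and 0 counts in the Scr control libraries, with both the highest and the lowest value in the Scr control group. H2bc9 had the lowest log2 fold change of the members, -0.24 (standard error 0.255), and H4f3 had 0.38 (standard error 0.174); neither passed. Of the remaining members, 5 replication-dependent genes (H2ac1, H2ac20, H2ac21, H2bc1 and H2bu1) and 3 germline-type genes (H1f7, H1f8 and H3f4) did not reach the filter, with no more than 13 counts in any library. H3f4, which had that value, stood at 0, 1 and 3 counts in the MIAT knockdown libraries, against 13, 5 and 1 counts in the Scr control libraries, and H1f7 had 2 counts in MIAT knockdown library 3 and 0 in the other libraries.

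H1f2 held most of the summed level of the 15 replication-dependent genes under the symbol rule in these polyadenylated libraries. It averaged 209 CPM in MIAT knockdown and 142 CPM in Scr control libraries. With the 25 Hist rows described below added to the 15 genes, the sum averaged 414 and 317 CPM (n = 3 each). The 15 replication-dependent genes summed to 274, 249 and 217 CPM in the MIAT knockdown libraries, against 172, 183 and 155 CPM in the Scr control libraries, with no overlap. Without H1f2 the sum was 49.9, 31.6 and 30.0 CPM in the MIAT knockdown libraries, against 42.1, 25.8 and 16.2 CPM in the Scr control libraries, and the groups overlapped. The 11 core genes of this class summed to 31.3, 21.5 and 19.4 CPM in the MIAT knockdown libraries, against 29.4, 20.5 and 12.4 CPM in the Scr control libraries, also with overlap. Without H4f3 the core sum was 23.3, 13.9 and 13.4 CPM in the MIAT knockdown libraries, against 22.3, 14.0 and 8.995 CPM in the Scr control libraries, and the groups overlapped as well. The 9 replacement genes summed to 881, 853 and 939 CPM in the MIAT knockdown libraries, against 726, 734 and 763 CPM in the Scr control libraries, a ratio of means of 1.20, with no overlap. The pseudogene H3f3c is part of this sum. It stood at 2.55, 2.41 and 21.9 CPM in the MIAT knockdown libraries, against 1.93, 1.74 and 21.3 CPM in the Scr control libraries. Replacement genes held 80.3% ± 2.47 in MIAT knockdown and 83.4% ± 1.54 in Scr control libraries of the summed FPKM of all 28 members (n = 3 each; exact two-sided permutation p = 0.3), lower in 3 of 3 pairs. This too is a share of polyadenylated RNA and not of all histone RNA. It also leaves out the 25 Hist rows. Their summed FPKM averaged 234 in MIAT knockdown and 180 in Scr control libraries, against 914 and 682 for the 28 members.

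**Figure D3:**
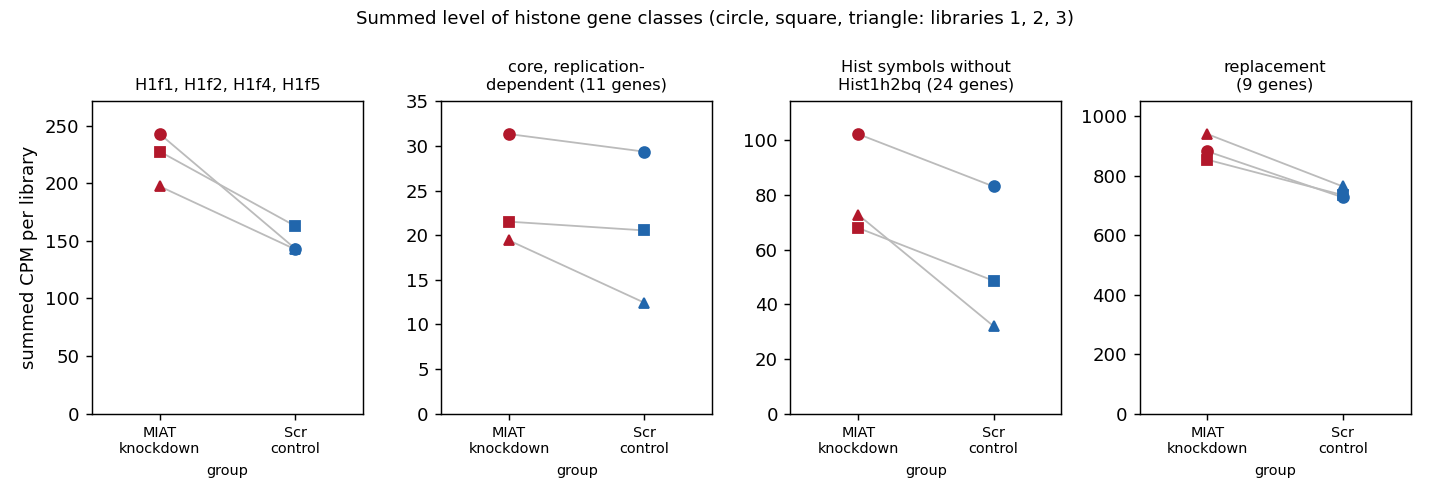
Summed CPM per library of 4 sets of histone genes, MIAT knockdown in red left of Scr control in blue, with lines joining same-numbered libraries. The sum of the clustered linker genes, most of it from H1f2, and that of the replacement genes are separated between the groups. The sums of the core replication-dependent genes and of the 24 Hist symbols without Hist1h2bq overlap. The core sum was 19.4 to 31.3 CPM in MIAT knockdown and 12.4 to 29.4 CPM in Scr control libraries.

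A further 25 rows carry older histone symbols that begin with Hist and fall outside the symbol rule. By their names they are core histone genes (H2A, H2B, H3 or H4) with a cluster number. This list was made after the symbols were seen. Of 22 tested, 6 rose, 0 fell and 16 did not pass in the block fit, in which 10.5% of all tested genes rose and 11.1% fell. Hist1h2an, an H2A gene, was at 4.22, 2.47 and 2.02 CPM in the MIAT knockdown libraries, against 1.13, 0.505 and 0.375 CPM in the Scr control libraries, without overlap, and had a log2 fold change of 2.14 (standard error 0.312) and an edgeR adjusted p (block) of 0.00396, the largest of this list. The H4 gene Hist1h4b averaged 10.9 ± 2.47 CPM in MIAT knockdown and 5.53 ± 1.27 CPM in Scr control libraries (SD, n = 3 each) and rose 1.98-fold. Hist1h4m, Hist2h2aa3, Hist2h4 and Hist3h2a rose by log2 fold changes of 1.28, 1.09, 0.78 and 0.47; the calls of these 4 ended without pair 2, at log2 fold changes of 1.68, 1.14, 0.84 and 0.48 on 1 residual degree of freedom, those of Hist2h2aa3 and Hist3h2a also without pair 1, and that of Hist2h4 with a length correction. DESeq2 with the block called Hist1h2an and Hist1h4b of the list, both higher, among 4.92% of all tested genes called higher and 6.92% called lower. Hist1h2bq, the most abundant, was at 86.0 ± 15.2 CPM in MIAT knockdown and 92.6 ± 5.98 CPM in Scr control libraries (n = 3 each) and did not pass, with a log2 fold change of -0.12. The H3 gene Hist1h3b did not pass either, at -0.25. Without pair 3 it was called lower, at -0.71 (edgeR adjusted p = 0.0061, block) on 1 residual degree of freedom. In that fit 2200 of 13602 tested genes were called lower.

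**Figure D4:**
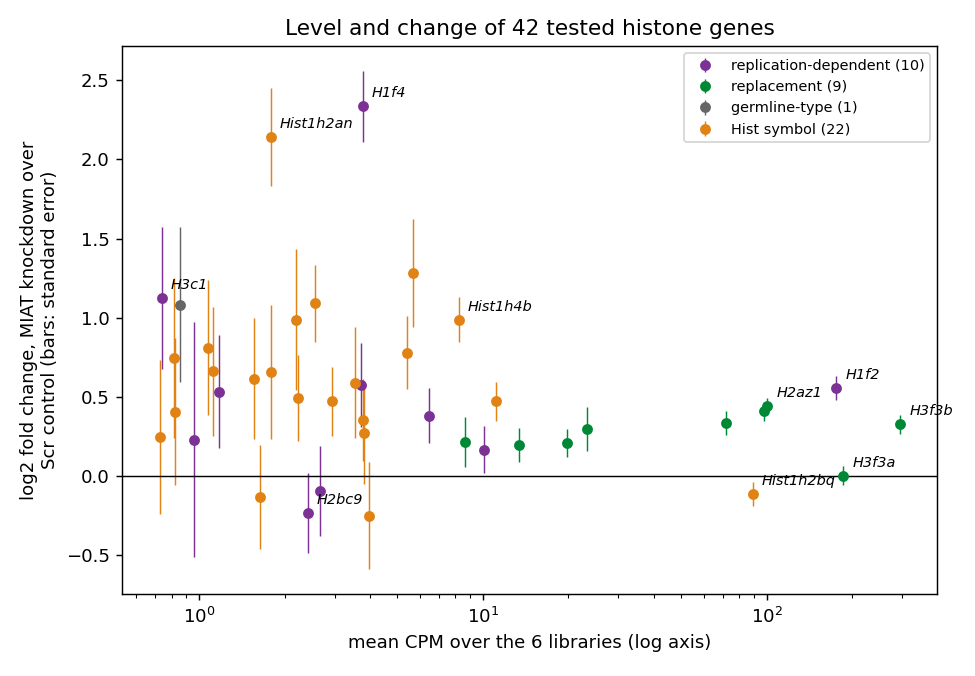
Log2 fold change of MIAT knockdown over Scr control with the replicate block against mean CPM over the 6 libraries, for 20 members and 22 rows with Hist symbols, with bars of 1 standard error. H1f4 and Hist1h2an stand highest at 2.34 and 2.14 at low levels, and the abundant replacement genes lie between 0.00 and 0.44 with short bars.

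Genes that make and process histone messenger RNA were described by the same fit. Of 29 tested, 5 rose, 2 fell and 22 missed the threshold, beside 10.5% and 11.1% of all tested genes that rose and fell, and the median log2 fold change was 0.10. Slbp, which encodes the stem-loop binding protein and is named for that role outside the naming rule, averaged 44.0 ± 5.25 CPM in MIAT knockdown and 37.4 ± 6.22 CPM in Scr control libraries (n = 3 each), with a log2 fold change of 0.24 (standard error 0.0702) and an edgeR adjusted p of 0.0427. This call ended without pairs 1, 2 and 3 in turn (adjusted p = 0.110, 0.153 and 0.0785), with the length correction (0.0848) and in DESeq2 with the block (0.230). Lsm11, of the U7 particle that cuts histone precursors, rose by a log2 fold change of 0.33, Casp8ap2, of the histone locus body, by 0.27 and Cstf2t by 0.27. Xrn1, the 5′ to 3′ exonuclease, fell, with a log2 fold change of -0.43, as did the uridyl transferase gene Tut7, with -0.33.

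Among 33 tested histone chaperone and deposition genes 8 rose, 5 fell and 20 missed the threshold, beside the same 10.5% and 11.1% of all tested genes, with a median log2 fold change of 0.13. Asf1b, a chaperone of new H3 and H4, averaged 23.1 ± 2.42 CPM in MIAT knockdown and 16.1 ± 0.864 CPM in Scr control libraries (SD, n = 3 each), a log2 fold change of 0.52 (standard error 0.0973) with an edgeR adjusted p of 0.00876. Nasp, which holds the histone reserve, rose by 0.45, and Chaf1a, the large subunit of the replication-coupled factor CAF-1, by 0.40 on the same scale. Dnajc9, an H3 and H4 co-chaperone, rose by 0.39. Atrx, which deposits H3.3 with DAXX, fell, with a log2 fold change of -0.38. With a correction for gene length 2 genes of this list fell in place of 5, where 7.69% of all tested genes fell. Of the histone variants outside the symbol rule, Cenpa, the centromeric H3 variant, rose by a log2 fold change of 0.47, whereas Macroh2a1 and Macroh2a2, which encode macroH2A proteins, had -0.11 and 0.04 and did not pass.

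Most genes of S phase and DNA replication were higher alongside the histone genes, 29 of 38 with a rise, 0 with a fall and 9 short of the threshold. Over all tested genes 10.5% rose and 11.1% fell in that fit. With the length correction 26 of the 38 rose and 0 fell. The median log2 fold change of the S phase list was 0.39, and the part of these genes in the histone values was not tested. Their summed level was 1315 to 1515 CPM in MIAT knockdown and 992 to 1282 CPM in Scr control libraries. Ccne2 and Ccna2, which encode cyclins E2 and A2, rose by log2 fold changes of 0.79 and 0.74, Pole2, a polymerase subunit gene, by 0.76, Cdt1, an origin licensing gene, by 0.75 and Gins2, of the replicative helicase, by 0.70. Of the 11 cell cycle exit genes 6 fell and 0 rose, and with the length correction 4 fell and 0 rose. With that correction 7.69% of all tested genes fell and 9.41% rose. Cdkn1c, which encodes the inhibitor p57, had a log2 fold change of -1.34 without the correction, Rb1 -0.38, Gas1 -0.37, Rbl2 -0.36 and Ccng2 -0.31. Of the genes named from the processing, chaperone, variant, S phase and exit lists, Xrn1, Nasp, Ccne2 and Ccna2 kept their calls without each pair in turn. The calls of Lsm11, Casp8ap2, Cstf2t, Asf1b, Dnajc9, Cenpa, Pole2, Gins2, Rb1 and Ccng2 ended without pair 1 and without pair 2, those of Chaf1a, Cdt1 and Cdkn1c without pair 1, those of Tut7, Atrx and Rbl2 without pair 2 and that of Gas1 without pairs 2 and 3. The calls of Atrx, Rb1 and Gas1 also ended with the length correction.

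Gene length moved with the changes across the genome and most histone genes are short. In the shortest of 5 equal groups of tested genes by length, 246 to 1661 bases, the median log2 fold change was 0.10 and 15.2% rose, against -0.14 and 5.47% in the longest. With a length correction and the block 6 members rose and 0 fell, where 9.41% of all tested genes rose and 7.69% fell, and the medians were 0.39 for the replication-dependent and 0.23 for the replacement genes. The log2 fold changes of H1f4, H1f2, H1f0, H2az1, H2ax and H3f3b were then 2.20, 0.49, 0.36, 0.32, 0.26 and 0.26.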

How the data were processed

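The authors deposited raw counts, whole numbers for each gene symbol, and FPKM values for the same 6 polyadenylated RNA libraries. Each deposited FPKM value above 0 (100% of them, to a relative tolerance of 1e-06) was the raw count scaled by 1 length for that gene and by the summed counts of that library, so FPKM carry no TMM scaling. Per the labels only the RNA kit and input are known; aligner, counter, strandedness and genome build were not given in the sources used here. A floor of 3 counts per library was set as a fixed value for reference and was not part of the filter or the tests.

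The members and lists were chosen with earlier results of these data known, and the list of Hist symbols after the symbols were seen. Replication-dependent, replacement and germline-type genes were separated by symbol. The test was edgeR 4.0.16 under R 4.3.3, quasi-likelihood, with TMM, filterByExpr and no covariate, adjusted by Benjamini-Hochberg over the 13423 genes kept, at 0.05. Simulated data with a deviation shared by same-numbered libraries were used to check that the fits returned the size of set changes. That check set no limit on false calls, and its limit on set changes recovered was for the block fit only. Once group means were removed, same-numbered libraries correlated across genes at 0.676, 0.517 and 0.582 and other combinations at -0.562 to -0.052. These exceeded the limit of 0.1 set for pairing, so a block fit on the replicate number is given as well. The labels do not state the pairing, which comes from the shared numbers and this check. The block lowered the biological coefficient of variation to 8.09%, against 19.7% without it, on 2 and 4 residual degrees of freedom. Within groups no library was a copy of another (chi-square per degree of freedom 20.6 to 83.6). Standard errors are the log2 fold change over the square root of F. Other settings were DESeq2 1.42.0, limma-voom and limma on log2(FPKM + 1) and log2(FPKM + 0.1) with limma 3.58.1, other scalings and filters, a length correction (loess, span 0.5) and left-out libraries or pairs. All tested members are named. From each further list up to 5 called genes with the largest absolute log2 fold change are named, with Slbp added. Outside this rule, all 6 called Hist symbols, Hist1h2bq and Hist1h3b were named after their values were seen.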

Additional observations from a re-analysis of the deposited data

How the results depend on the processing

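Without the block 0 genes passed in edgeR, limma-voom or limma on FPKM, and with DESeq2 699 genes passed (367 higher, 332 lower), among them 2 replication-dependent and 3 replacement histone genes. The replicate block gave 2898 genes in edgeR, 1590 in DESeq2, 3051 in limma-voom, 2857 on log2(FPKM + 1), 2932 on log2(FPKM + 0.1), 2961 with DESeq2 size factors, 3641 with total counts (2822 higher, 819 lower), 3128 without a filter, 2909 at 1 CPM in 3 libraries and 2295 with the length correction, and 1195, 736 and 4124 without pairs 1, 2 and 3. In these block fits 2 replication-dependent genes passed, or 3 on either FPKM scale, and 4 replacement genes, or 6 on either FPKM scale, 5 with total counts and 2 without pair 2. With total counts and the block, all tested genes had a median of 0.10, against -0.01 with TMM. The 6 histone risers were higher in all 29 settings. H1f4, H1f2, H1f0 and H2az1 passed in all 13 block fits, and H2ax and H3f3b in 12. The replication-dependent median, 0.40 (0.46 with the block), was 0.34 to 0.64 in the other settings with all libraries, 0.096 without Scr control library 3 to 0.56 without Scr control library 1, and 0.47, 0.61 and 0.21 without pairs 1, 2 and 3; its SD between pairs was 0.31. The replacement median, 0.28, was 0.40 on log2(FPKM + 1) and 0.41 on log2(FPKM + 0.1), with or without the block, 0.38 with total counts (0.40 with the block), 0.24 to 0.36 without a library, and 0.35 and 0.37 without pairs 1 and 2. Some members that did not pass changed sign. H1f5 was 0.025 and 0.056 on the FPKM scales, 0.013 with total counts and the block, 0.22 without pair 1 and -0.48 to 0.39 without a library. H2ac12 was -0.018 with DESeq2, -0.0090 with its size factors, -0.14 with the length correction, -0.65 without pair 3 and -0.59 to 1.39 without a library. H3c13 was -0.012 without pair 3 and -0.24 to 0.59 without a library. H3f3a was 0.0023 in limma-voom, 0.0053 without a filter, 0.11 on the FPKM scales and with total counts, 0.0014 with the block in edgeR, 0.00023 with it in limma-voom, 0.011 with it and no filter, 0.067 without pair 3, and -0.077 to 0.084 without a library. H3f3c was -0.042 with the length correction and -1.74 to 2.28 without a library. Exact permutation tests of the 10 shares could not pass 0.05, as their smallest possible p is 0.1 unpaired and 0.25 paired. The core sum's log2 ratio was 0.16 without H4f3, against 0.21 with it. The paired tests and the sum without H4f3 were chosen after seeing the data. The cause of the moves between settings was not tested. Depth limits the low members: 8 had no more than 13 counts in any library, and leaving out a pair leaves 1 residual degree of freedom.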

Other observations

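Only histone symbols of the count table that matched RefSeq could be placed, 28 of 28 members and 20 of 25 Hist symbols. Along chromosome 17 of GRCr8, the placed genes nearest to H1f4 in order were Hist1h2bq before it and H3c13 and Hist1h2an after it. Their block log2 fold changes were -0.12, 0.16 and 2.14, against 2.34 for H1f4. H1f4 and Hist1h2an rose, and Hist1h2bq and H3c13, which come beside them in this order, did not pass. Of the placed histone genes on this chromosome H1f2, H1f4, Hist1h2an, Hist1h4b and Hist1h4m rose, and they were not next to each other in this order. These neighbours were chosen after their values were seen.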
